A study of Mus musculus with 5 samples.

Results

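*Ncald* encodes neurocalcin delta, and with it 9 further genes for small calcium-binding proteins of neurons were read from the RNA sequencing of sympathetic neurons. These 10 genes were taken by symbol from a count table of 20224 genes, and each matched 1 row: *Ncald*, *Hpca*, *Hpcal1*, *Hpcal4*, *Vsnl1*, *Ncs1*, *Cabp1*, *Cabp7*, *Calb1*, and *Calb2*. The libraries were made from E14.5 mouse embryos of non-diabetic pregnancies, and each held 100 cells sorted from dissociated sympathetic ganglia for tdTomato and for eGFP. The *Isl1-Cre* knock-in allele switches on the *Ai14* tdTomato reporter wherever *Isl1* has been active, which includes sensory and motor neurons, and *Prph-eGFP* marks neurons that express peripherin. All embryos carried *Isl1-Cre*, *Ai14*, and *Prph-eGFP*. The 2 control libraries (replicates 5 and 6) had 1 floxed *Hif1a* allele (*Hif1a loxP/+*), and the 3 *Hif1aCKO* libraries (replicates 3, 4, and 5) were *Hif1a loxP/loxP*. The series text also describes controls without *Isl1-Cre*, which a sort for tdTomato would not collect. A floxed exon 2 is deleted by *Cre*, in whichever *Isl1*-expressing cell carries it, and the parental lines had mixed C57BL/6J, C57BL/6N, and FVB backgrounds.

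Neuronal calcium sensors are EF-hand proteins with a fatty acid (myristoyl) group at their amino terminus. When calcium binds, many of them expose this group and move to membranes, so that a rise in calcium changes which partners they meet. *Ncald*, *Hpca*, *Hpcal1*, *Hpcal4*, and *Vsnl1* form the visinin-like branch of this family, and *Ncs1* is its most widely expressed member, known for regulating neurotransmitter release. *Cabp1* and *Cabp7* are related to calmodulin and act on calcium channels and on membrane traffic at the Golgi, and *Calb1* (calbindin) and *Calb2* (calretinin) mainly buffer calcium.

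The sensors resemble each other in sequence, and the stretch of 45 coding bases of *Ncald* that the other sensors match best is shown because alike stretches could share reads. It codes for part of the third EF-hand and lies at bases 307 to 351 of each coding sequence, which for *Ncald* is exon 5 of 7 on chromosome 15 of GRCm38, from 37397084 to 37397128, minus strand. Capitals mark bases that differ from *Ncald*.
Ncald: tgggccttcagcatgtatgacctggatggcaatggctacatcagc
Hpca: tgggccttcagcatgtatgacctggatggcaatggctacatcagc
Hpcal1: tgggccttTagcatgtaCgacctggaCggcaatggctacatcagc
Hpcal4: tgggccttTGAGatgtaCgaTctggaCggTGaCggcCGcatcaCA
Vsnl1: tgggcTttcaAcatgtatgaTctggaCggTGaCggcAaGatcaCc
Ncs1: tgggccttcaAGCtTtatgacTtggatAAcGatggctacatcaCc
*Hpca* matched *Ncald* at every base of this stretch, *Hpcal1* differed at 3, *Ncs1* at 9, *Vsnl1* at 10, and *Hpcal4* at 14 bases. Over the whole coding sequence *Ncald* was 80.1% identical to *Hpcal1*, 78.6% to *Hpca*, 68.9% to *Vsnl1*, 65.8% to *Hpcal4*, and 62.8% to *Ncs1*. *Hpca* and *Hpcal1* were the closest pair with 86.0%. The reads came from a kit of 75 cycles, and the annotated transcripts of no pair among the 10 genes shared a stretch of 75 bases. Trimmed reads can be shorter. *Ncald* and *Hpca* shared 22 stretches of 25 bases, and *Hpca* and *Hpcal1* shared 32, the most of any pair. The longest run of identical coding bases in any pair was 46, between *Ncald* and *Hpca*. The authors did not count reads that map to several places.

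Library totals lay between 8254211 and 9700887 counts, and values below were normalized for library size with TMM factors from 0.974 to 1.03. Markers of sympathetic neurons were high in all libraries, with a summed level of 1494 and 1896 CPM per exonic kilobase in control and 1394, 1364, and 1424 in *Hif1aCKO* libraries (CPM, counts scaled to a common normalized library size). All *Hif1aCKO* sums lay under the control sums. Of the 12 markers, 5 had every *Hif1aCKO* value under both control values (12.9% of all genes did). For 1, *Hand2*, every *Hif1aCKO* value was over them (also 12.9% of all genes). By the log2 ratio of *Hif1aCKO* over control, 5 markers were higher and 7 lower, with a median of -0.21. The sensory neuron list had sums of 4.86 and 3.32 in control and 5.99, 7.49, and 7.85 in *Hif1aCKO* libraries, with 4 of 4 tested markers higher and a median log2 ratio of 0.73 for *Hif1aCKO* over control, while the defining *Pou4f1* had 2 to 5 counts in every library. Summed levels ranged from 0.0602 to 0.303 for mesenchyme, from 0.0136 to 0.481 for endothelium, and from 0.396 to 1.47 for the 1 erythroid marker in the table. The motor neuron list summed to 55.9 and 60.5 in control and from 33.7 to 44.0 in *Hif1aCKO* libraries, mostly from *Slc18a3* and *Foxp1*. The chromaffin cell list summed to 1050 and 1049 in control and from 1336 to 1781 in *Hif1aCKO* libraries, with *Cartpt* as its largest part (log2 ratio 1.04). In this list 4 of 6 tested genes were lower, with log2 ratios of -1.69 for *Chgb*, -1.36 for *Epas1*, -1.91 for *Pnmt*, and -3.34 for *Htr3b*, and the median was -1.52. Schwann cell precursor markers stood out in *Hif1aCKO* replicate 3, with 926 counts of *Fabp7*, 51 of *Cdh19*, and 50 of *Erbb3*, against at most 9, 0, and 2 counts in the other libraries. Among 20 G2/M phase genes 16 had every *Hif1aCKO* value over both control values (12.9% of all genes did), and the median log2 ratio of the list was 0.57. The study had named some of the list, such as *Cdc20*, *Kif23*, and *Mki67*, as upregulated in these same libraries, so this count is not independent of them. *Xist* had 3974 counts in control replicate 5, 4597 in *Hif1aCKO* replicate 3, and at most 3 in the others, so both genotypes held both patterns. The summed counts of *Hif1a* run over all its exons and cannot show the deletion of exon 2; their normalized mean was 1835 ± 355 (SD, n = 2) for control and 2213 ± 499 (SD, n = 3) for *Hif1aCKO*. *Isl1*, whose locus drives *Cre*, had 13298 ± 1020 (SD, n = 2) and 8385 ± 509 (SD, n = 3), and *Prph* had 5224 ± 1049 (SD, n = 2) and 5813 ± 791 (SD, n = 3).

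Levels of the 10 genes were compared per exonic kilobase and scaled as above. *Ncald* was the highest, with 115 ± 1.92 (SD, n = 2) for control against 76.0 ± 11.8 (SD, n = 3) for *Hif1aCKO* neurons, and its mean over the libraries ranked 636 among 15032 genes tested. *Ncs1* followed with 77.6 ± 12.3 (SD, n = 2) and 56.9 ± 15.7 (SD, n = 3), rank 937. *Hpcal1* had 25.5 ± 2.03 (SD, n = 2) and 27.5 ± 3.39 (SD, n = 3), and *Cabp7* had 9.39 ± 0.468 (SD, n = 2) and 7.89 ± 1.22 (SD, n = 3). *Ncald* was above *Ncs1* in 5 of 5 libraries, although their ranges over all libraries overlapped. The ranges of *Ncs1*, *Hpcal1*, *Cabp7*, and *Hpca* did not overlap each other. *Hpca* (mean level 1.94), *Hpcal4* (1.05), *Vsnl1* (0.800), and *Cabp1* (0.734) had overlapping ranges and ranked from 10628 to 13034. *Calb2* (0.168) and *Calb1* (0.0341) were at or near 0. The abundant sensors of these sympathetic neurons were thus *Ncald*, *Ncs1*, and *Hpcal1*.

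**Figure D1:**
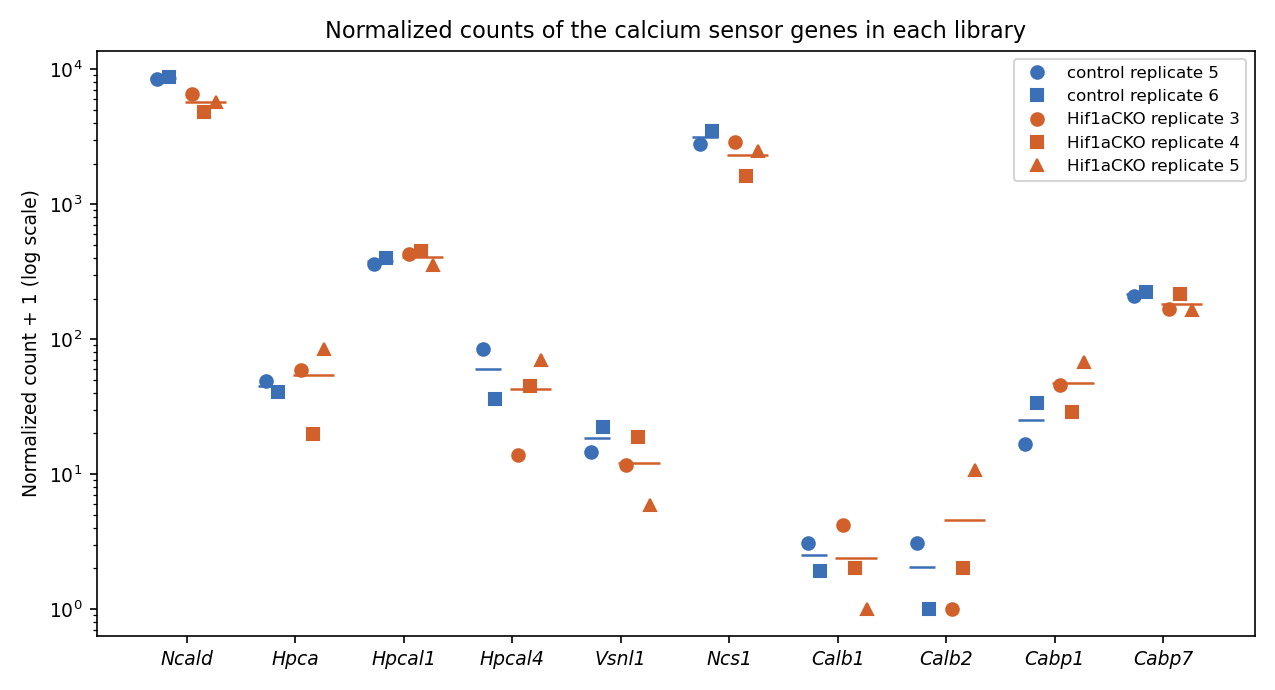
Normalized count plus 1 (log axis) of each of the 10 genes, with 1 point per library, blue for the 2 control and orange for the 3 Hif1aCKO libraries, and a bar at each group mean. For Ncald both control points (8497 and 8701) lie above the 3 Hif1aCKO points (4806 to 6583), whereas the groups overlap for the other 9 genes.

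To ask which genes differ when *Hif1a* is deleted, edgeR's quasi-likelihood test was run over 15032 genes, and p-values were adjusted after Benjamini and Hochberg. The log2 ratio is that of *Hif1aCKO* over control neurons in this fit. To be called, a gene needed an adjusted p-value under 0.05, a log2 ratio beyond 0.3 either way, and on average 50 normalized counts or more. Of the 10 genes 8 passed the filter on low counts and were tested, 5 lower and 3 higher in *Hif1aCKO* neurons, and 0 were called. Their median log2 ratio was -0.35, against 0.01 over all genes tested. This median includes *Ncald*, which was picked for its difference, and the scarce *Hpca*, *Hpcal4*, *Vsnl1*, and *Cabp1*, with SEs from 0.68 to 0.97. It was not tested. Over all genes tested 0 were called as well (0.0%). With no adjustment, 1 member (*Ncald*) had a p-value under 0.05, among 1153 such genes in all (7.67%). It was on the lower side, as were 3.85% of all genes, and 0 members were on the higher side, against 3.83% of all genes. DESeq2 with the same thresholds called 60 of 20171 genes (0.297%), 0.149% lower, and *Ncald* was the only member called. The smallest p-value that permuting 2 against 3 libraries exactly can reach is 0.1.

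*Ncald* (ENSMUSG00000051359, chromosome 15 of GRCm38, 37366175 to 37792570, minus strand) binds clathrin and is known as a modulator of endocytosis in neurons. Its normalized count was 8497 and 8701 in the control libraries (replicates 5 and 6), against 6583, 4806, and 5734 for replicates 3, 4, and 5 of *Hif1aCKO*. Each *Hif1aCKO* value was under the lower control value, an order seen in 12.9% of all genes tested. The means were 8599 ± 144 (SD, n = 2) and 5708 ± 889 (SD, n = 3), a log2 ratio of -0.59 (SE 0.14, 95% interval -0.92 to -0.26, unadjusted p = 0.00293, adjusted p = 0.586 in edgeR). The means lay further apart than either SD. DESeq2 gave a log2 ratio of -0.59 and an adjusted p-value of 0.0378, which passed the threshold. The study listed *Ncald* among the downregulated genes in its own DESeq2 comparison of these libraries. Because *Ncald* was chosen on these libraries, neither the edgeR nor the DESeq2 value given here is independent evidence of its direction. The study also measured *Ncald* by quantitative PCR in dissected sympathetic chains. Its text reports lower levels for both genotypes under maternal diabetes, and names no difference between genotypes for *Ncald* by PCR. The PCR samples are not among these libraries. Leaving out each library in turn kept the log2 ratio between -0.71, without *Hif1aCKO* replicate 3, and -0.48, without *Hif1aCKO* replicate 4. The summed level of the G2/M genes was 1125 and 909 in control and 1497, 1798, and 1414 in *Hif1aCKO* libraries, highest where *Ncald* was lowest. That of 12 genes of neuronal differentiation was 3671 and 3670 against 3635, 3061, and 3336. Singly, 5 of these 12 were higher and 7 lower, with a median log2 ratio of -0.08. Every *Hif1aCKO* value was under both control values for 3 of them and over both for 3 (12.9% of all genes each way). The sums of the sympathetic, sensory, motor, and chromaffin lists given above were also split by genotype. The part of these lists in the difference was not tested. In bulk libraries, fewer cells with a transcript and less of it per cell cannot be told apart.

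The 3′ end of *Ncald* holds an antisense gene, *Gm28221* (chromosome 15, 37367205 to 37368498), and all of its 347 exonic bases lie in *Ncald* exons of the annotation used here. It had 1610 and 1797 counts in control and 1309, 973, and 1157 counts in *Hif1aCKO* libraries, with a log2 ratio of -0.52 ± 0.18 (SE, adjusted p = 0.621 in edgeR). The default counting named in the methods ignores strand and drops reads that fall on more than 1 gene, which would leave a gene inside *Ncald* exons with few counts. How *Gm28221* came to have these counts, through strand or through the older annotation that was counted on, is not given in the sources used here. Reads of *Ncald* may therefore be among the counts of *Gm28221*, and the reverse, and this was not tested. With both counts added, in an alternative chosen after the data were seen, the log2 ratio of *Ncald* was -0.58 (SE 0.14, adjusted p = 0.587 in edgeR). *Gm49397*, on the same strand, shares 286 bases with *Ncald* and had at most 8 counts.

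*Gm28221* was also one of the 5 genes whose profile lay nearest to that of *Ncald* among 10841 genes with a mean normalized count of at least 50. The measure was the root mean square difference, over the 5 libraries, of log2(normalized count + 1) centred on each gene's mean. It was 0.041 for *Vps52*, a subunit of a complex that tethers vesicles to the trans-Golgi network, 0.050 for *Smad2*, a transducer of TGF-beta signals, 0.052 for *Gm28221*, 0.055 for *Bcap29*, an endoplasmic reticulum protein, and 0.059 for *Bmpr2*, a receptor for bone morphogenetic proteins. In each of these both control values exceeded the 3 *Hif1aCKO* values, as nearness to *Ncald* requires. The nearest of the calcium sensors was *Ncs1*, with 0.174 at position 449, ahead of *Cabp7* (0.319, position 3023) and *Hpcal1* (0.407, position 5267).

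**Figure D2:**
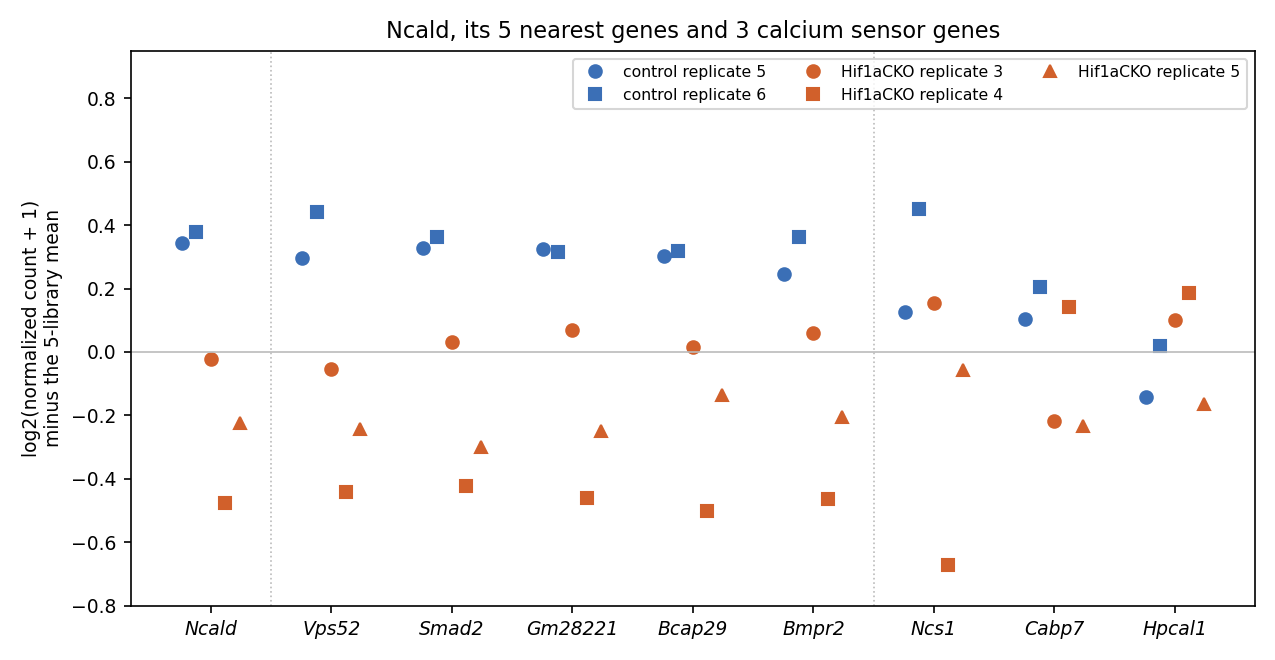
Deviation of log2(normalized count + 1) from each gene's 5-library mean, with 1 point per library, for Ncald (left), its 5 nearest genes (middle), and the 3 other calcium sensor genes with a mean count of at least 50 (right). Ncald and its 5 nearest genes have both control points above all Hif1aCKO points, with Hif1aCKO replicate 4 lowest, whereas in Ncs1, Cabp7, and Hpcal1 the groups overlap.

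*Ncs1* (ENSMUSG00000062661, chromosome 2, 31245823 to 31295989) encodes a sensor that activates a phosphatidylinositol kinase, encoded by *Pi4kb*, and binds G protein regulators. It had 2804 and 3512 normalized counts in control and 2863, 1613, and 2472 in *Hif1aCKO* libraries. *Hif1aCKO* replicate 4 was the lowest, as for *Ncald*, and replicate 3 lay between the control libraries, so the groups overlapped. The means of 3158 ± 500.4 (SD, n = 2) and 2316 ± 639 (SD, n = 3) gave a log2 ratio of -0.45 (SE 0.24, 95% interval -0.99 to 0.10, adjusted p = 0.699 in edgeR). It was -0.24 without *Hif1aCKO* replicate 4, -0.28 without control replicate 6, and -0.63 without *Hif1aCKO* replicate 3.

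*Hpcal1* (ENSMUSG00000071379, chromosome 12, 17690856 to 17791933), the member closest to *Ncald* in coding sequence, had 357 and 399.8 normalized counts in control and 424, 449, and 352 in *Hif1aCKO* libraries. Its highest value was in *Hif1aCKO* replicate 4, where *Ncald* and *Ncs1* were lowest, and its groups overlapped. The log2 ratio was 0.11 (SE 0.21, 95% interval -0.38 to 0.60, adjusted p = 0.945 in edgeR). Per exonic base, *Ncald* exceeded *Hpcal1* by 4.70 and 4.30 times in control and by 3.07, 2.11, and 3.22 times in *Hif1aCKO* libraries. These ratios, which do not depend on library size, did not overlap between genotypes, and they are given without a test because *Ncald* was picked for its difference. The ratio of *Ncald* to *Ncs1* was 1.64 and 1.34 in control and 1.25, 1.62, and 1.26 in *Hif1aCKO* libraries, with overlapping groups.

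*Hpca* (hippocalcin, ENSMUSG00000028785, chromosome 4, 129111570 to 129122036), *Hpcal4* (ENSMUSG00000046093, chromosome 4, 123183227 to 123194701), and *Vsnl1* (visinin-like 1, ENSMUSG00000054459, chromosome 12, 11325242 to 11436613) were scarce. *Hpca* had 47.9 and 39.9 normalized counts in control and 57.9, 19.0, and 83.7 in *Hif1aCKO* libraries, so that both the lowest and the highest value belonged to *Hif1aCKO*. Its log2 ratio of 0.29 ± 0.68 (SE) became -0.19 without *Hif1aCKO* replicate 5. *Hpcal4* had 83.3 and 35.2 in control and 12.9, 43.9, and 69.1 in *Hif1aCKO* libraries, and its log2 ratio of -0.49 ± 0.76 (SE) became 0.25 without control replicate 5. *Vsnl1* was counted 13 and 23 times in control and 10, 18, and 5 times in *Hif1aCKO* libraries, with a log2 ratio of -0.64 ± 0.97 (SE). The 95% intervals of these genes ran from -1.27 to 1.84, from -2.24 to 1.25, and from -2.88 to 1.60, wide enough to hold a difference as large as that of *Ncald* in either direction. No direction could be given for them.

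*Cabp7* (ENSMUSG00000009075, chromosome 11, 4736892 to 4746778), also called calneuron 2, is known to restrain the phosphatidylinositol kinase that *Ncs1* activates. It had 208 and 224 normalized counts in control and 166, 214, and 164 in *Hif1aCKO* libraries, with 1 *Hif1aCKO* library between the controls. The log2 ratio was -0.25 (SE 0.27, 95% interval -0.88 to 0.38, adjusted p = 0.869 in edgeR). The antisense gene *Zmat5* covers 12.9% of the exonic bases of *Cabp7* and had a log2 ratio of -0.24. *Cabp1* (ENSMUSG00000029544, chromosome 5, 115168689 to 115194381), which binds inositol trisphosphate receptors and voltage-gated calcium channels, had 15.6 and 32.5 in control and 45.03, 28.0, and 66.2 in *Hif1aCKO* libraries. It had the highest log2 ratio of the tested members, 0.94 (SE 0.68, 95% interval -0.61 to 2.50, adjusted p = 0.773 in edgeR). The groups of *Cabp1* overlapped, and the value moved to 0.51 without control replicate 5, 0.60 without *Hif1aCKO* replicate 5, and 1.56 without control replicate 6.

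The buffers were nearly absent. *Calb1* (ENSMUSG00000028222, chromosome 4, 15881264 to 15908064) was counted 2 and 1 times in control and 3, 1, and 0 times in *Hif1aCKO* libraries, at or under the floor of 3 counts in each library. *Calb2* (ENSMUSG00000003657, chromosome 8, 110137502 to 110168210) was counted 2 and 0 times in control and 0, 1, and 10 times in *Hif1aCKO* libraries, so that only *Hif1aCKO* replicate 5 was above the floor. Neither passed the filter, and no fold change was given.

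**Figure D3:**
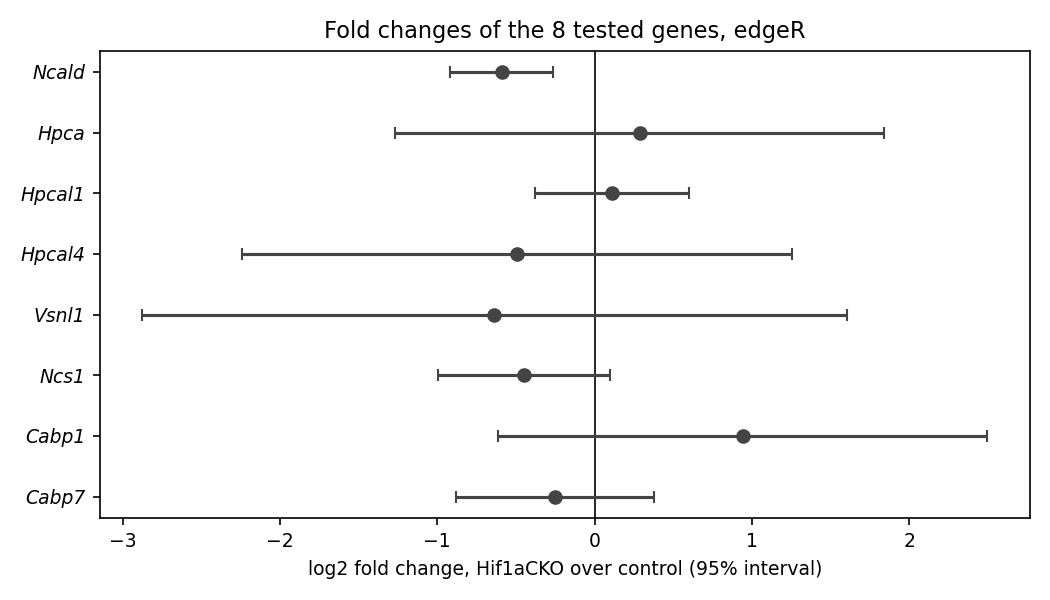
The log2 fold change (log2 ratio) of Hif1aCKO over control neurons for the 8 tested genes, with the 95% interval of edgeR's quasi-likelihood fit. Only the interval of Ncald (-0.92 to -0.26) lies on 1 side of 0, and those of Hpca, Hpcal4, Vsnl1, and Cabp1 are the widest.

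*Ncald* and *Ncs1* made up most of the family's level. The sum over the 10 genes was lower in each *Hif1aCKO* library than in both controls, at 198, 147, and 175 CPM per exonic kilobase against 220 and 243 in control. *Ncald* took 51.4% and 47.7% of this sum in control and 44.3%, 43.7%, and 43.7% in *Hif1aCKO* libraries. The share of *Hpcal1* was 10.9% and 11.1% in control and 14.4%, 20.7%, and 13.6% in *Hif1aCKO* libraries. The groups did not overlap for either share, whereas that of *Ncs1* averaged 33.4% ± 2.97 (SD, n = 2) and 32.4% ± 4.69 (SD, n = 3). The sum and these shares contain *Ncald* itself, which was picked for its difference, and are a description. Taken singly, the other 9 genes had overlapping groups, so the lower sum is not a result about the family. The union of *Ncald* exons is 8581 bases and its longest transcript 3733 bases, and with the latter kind of length its mean share was 68.5% in control and 63.1% in *Hif1aCKO* neurons.

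**Figure D4:**
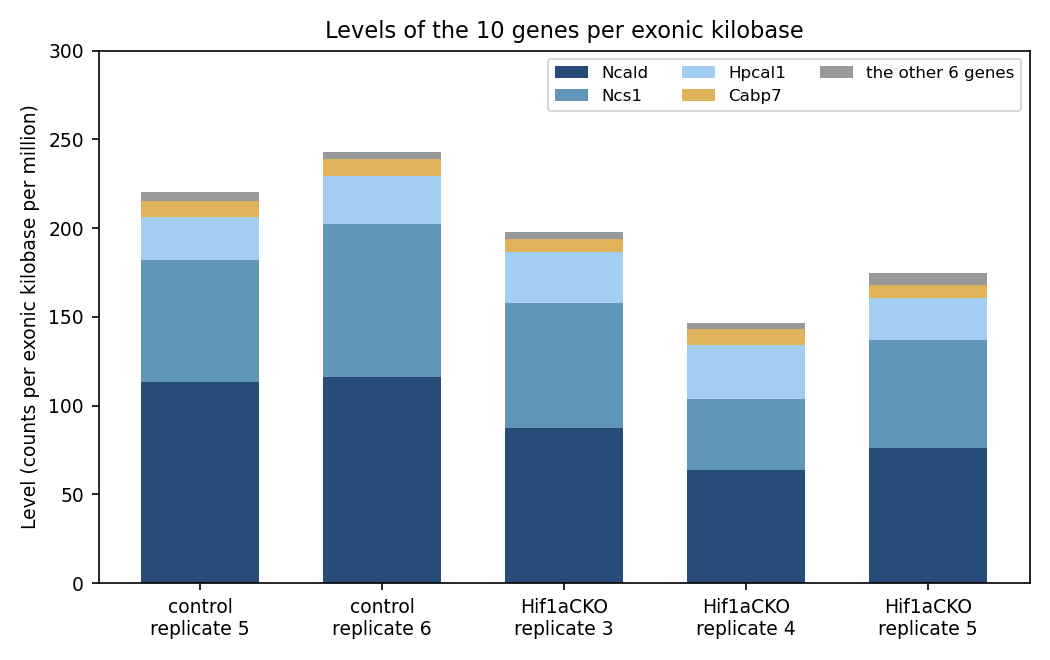
Stacked levels in CPM per exonic kilobase for Ncald, Ncs1, Hpcal1, Cabp7, and the sum of the other 6 genes, with 1 bar per library. The 2 control bars reach 220 and 243, and the 3 Hif1aCKO bars reach 198, 147, and 175, with Hpcal1 and Cabp7 of similar height in all libraries.

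Divided by what counting alone would give, the variance within genotypes was 90.4 for *Ncald* and 142 for *Ncs1*, where counting error was smallest, and between 3.04 and 18.8 for the other 6 tested genes.

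Other genes of calcium signalling, listed by function, were read in the same fit. Of 7 further neuronal calcium sensor genes, 5 were in the table and 2 were tested, with 0 below an unadjusted p-value of 0.05. Of these, 0 were higher and 2 lower, with a median log2 ratio of -0.76. *Kcnip1*, an auxiliary subunit of A-type potassium channels, had the highest level of them per exonic kilobase, with 841 ± 163 (SD, n = 2) against 774 ± 79.9 (SD, n = 3) normalized counts. *Kcnip3* was counted 74 and 3 times in control and 0, 1, and 45 times in *Hif1aCKO* libraries, and did not separate the genotypes. Among other small EF-hand proteins 21 of 33 were tested, 8 higher and 13 lower, with a median log2 ratio of -0.08. *Calm2*, which encodes calmodulin, had the highest level per exonic kilobase (log2 ratio 0.01). In this list 1 gene had an unadjusted p-value under 0.05, *Chp1*, a calcineurin-like protein that binds sodium-proton exchangers (log2 ratio -0.47 ± 0.20 SE, adjusted p = 0.647 in edgeR).

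Of 23 calmodulin kinase, calcineurin, and regulator genes 22 were tested, 8 higher and 14 lower, with a median of -0.14. Again 1 gene had an unadjusted p-value under 0.05, *Gap43*, a calmodulin-binding protein of growing axons. *Gap43* also had the highest level of them per exonic kilobase, with 37747 ± 3899 (SD, n = 2) normalized counts for control, against 30155 ± 3053 (SD, n = 3) in *Hif1aCKO* neurons (log2 ratio -0.32 ± 0.11 SE, adjusted p = 0.618 in edgeR). Its *Hif1aCKO* libraries lay below both control libraries, as for 3 genes of this list in all and 12.9% of all genes tested.

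Proteins known to bind neuronal calcium sensors were represented by 13 tested genes of 16, with 6 higher, 7 lower, and a median of -0.07. *Ap2b1*, a subunit of the clathrin adaptor of endocytosis, had 577 ± 28.3 (SD, n = 2) against 391 ± 40.8 (SD, n = 3) normalized counts, with a log2 ratio of -0.56 ± 0.19 (SE, unadjusted p = 0.0184, adjusted p = 0.621 in edgeR). Every *Hif1aCKO* value was under both control values for 3 genes of this list, *Ap2b1* among them, and over both for 2 (12.9% of all genes each way). The clathrin light chain *Clta* had the highest level of this list per exonic kilobase and a log2 ratio of 0.07, and *Pi4kb* had one of 0.16.

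The list of calcium stores, pumps, and exchangers had 20 tested genes of 26, with 9 higher, 11 lower, and a median of -0.14. Of these 1 lower and 1 higher gene had an unadjusted p-value under 0.05. *Atp2c1*, the calcium pump of the Golgi, had 1637 ± 12.7 (SD, n = 2) against 1235 ± 149.8 (SD, n = 3) normalized counts, with a log2 ratio of -0.41 ± 0.16 (SE, adjusted p = 0.621 in edgeR). *Stim1*, the calcium sensor of the endoplasmic reticulum, had 62.8 ± 12.2 (SD, n = 2) and 130 ± 43.3 (SD, n = 3), with a log2 ratio of 1.05 ± 0.42 (SE, adjusted p = 0.636 in edgeR). *Atp2a2*, the pump that fills the endoplasmic reticulum, had the highest level of the list per exonic kilobase, with a log2 ratio of 0.20. Over these 5 lists 0 of the tested genes were called by edgeR or by DESeq2. Of the 78 genes tested in them 5 (6.41%) had an unadjusted p-value under 0.05, near the 7.67% of all genes.

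The hypoxia response motif bound by HIF-1 has the core ACGTG or GCGTG. RefSeq promoter windows on GRCm38.p6, from 250 bases before to 50 after a start site, were at hand for 7 of the 10 genes in 11 windows: *Ncs1*, *Hpcal1*, *Hpcal4*, *Hpca*, *Vsnl1*, *Cabp1*, and *Cabp7*. None was at hand for *Ncald*, *Calb1*, or *Calb2*, so the shares below say nothing about *Ncald*. On either strand, ACGTG was in 18.2% of these windows and in 19.6% of all 32851 windows, and GCGTG in 45.5% and 32.4%. The windows of *Ncs1* and *Hpcal4* held neither. GCGTG was found at 2 positions in the window of *Hpcal1* and in 1 window of *Vsnl1*, GCGTG once in each of 2 windows of *Cabp1*, and ACGTG once in the window of *Cabp7*. Of the 3 windows of *Hpca*, 1 held ACGTG at 2 positions, 1 held GCGTG once, and 1 held neither. A match is no evidence of binding, and its absence says only that these letters are not in the window.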

How the data were processed

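Libraries were made by the authors with the NEBNext single-cell low-input kit from 100 sorted cells each and sequenced on a NextSeq 500. The authors trimmed reads with cutadapt (version 1.18) and Trimmomatic, removed ribosomal and vector reads with bowtie (version 1.2.2) and SortMeRNA, and mapped the rest to GRCm38 with STAR (version 2.7.0c). Rsubread at its defaults gave the counts, in which multi-mapping reads have no part. Deposited values are these raw counts, not normalized. Of 20224 identifiers 29 were not in GENCODE release M21, which gave names, positions, and lengths. The methods name an older release for the genome, so the lengths behind levels per exonic kilobase may cover other exons than the counts.

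Counts were tested with edgeR (version 4.0.16, R version 4.3.3) after filterByExpr and TMM, with standard errors from the quasi-likelihood fit and p-values adjusted over 15032 genes. Alternatives were RLE and upper-quartile normalization, no filter, at least 10 counts in every library, DESeq2 (version 1.42.0), edgeR's likelihood ratio test, limma-voom (version 3.58.1) with and without quality weights, other thresholds and lengths, and leaving out each library. Thresholds for a call follow the published DESeq2 analysis. Tests were tried on simulated data, drawn with the spread that edgeR estimated from these libraries. With 200 genes changed 2-fold, DESeq2 called 75 of these and 18 unchanged genes. The edgeR quasi-likelihood test and limma-voom each called 43 changed and 3 unchanged genes. No pair of libraries was a duplicate (chi-square over its degrees of freedom, 14.2 or more). The labels call the libraries biological samples. Genes named were the 10 members, *Hif1a*, *Isl1*, *Prph*, *Xist*, the 5 genes nearest to *Ncald*, markers on which a list turns, and, of each calcium signalling list, the gene with the highest level per exonic kilobase and up to 3 with an unadjusted p-value under 0.05; *Kcnip3*, *Pi4kb*, *Gm49397*, and *Zmat5* were added after their values were seen. The members and lists were chosen with earlier results of these data known. Intervals of log2 ratios are those of edgeR's quasi-likelihood fit over the libraries, and none was given for a single library. The floor of 3 counts applies to single libraries and covers counting error only. Normalized counts are scaled to the mean effective library size.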

Additional observations from a re-analysis of the deposited data

How the results depend on the processing

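The log2 ratio of *Ncald* ranged from -0.71 to -0.48 with 1 library left out, each time with an unadjusted p-value under 0.05, and between -0.61 and -0.56 under the other alternatives. Adjusted p-values ranged from 0.0378 to 0.999, only DESeq2 called the gene (-0.59), and the cause was not tested. DESeq2 called 60 genes in all and 1 member, and edgeR's likelihood ratio test called 40 genes and no member. Leaving out a library gave 0 to 4 calls over all genes, the 4 without control replicate 5, and 0 among the members. When 1 control library was left, it was assumed to vary like the *Hif1aCKO* libraries. The log2 ratios of *Hpca* (-0.19 to 0.69) and *Hpcal4* (-1.05 to 0.25) changed sign when a library was left out, and the other 6 kept their sign. With longest transcripts or longest coding transcripts as lengths, the share of *Ncald* was 68.5% and 68.3% in control and 63.1% and 62.7% in *Hif1aCKO* neurons. Leaving out 1 library gave 47.7% to 51.4% and 43.7% to 44.0%. The median of the further neuronal calcium sensors was -0.76 in the main fit. It was 0.93 without a filter and 1.03 with DESeq2, which add genes with few counts, and -0.49 to 1.04 without single libraries. The same ranges were -0.32 to 0.029 for the calmodulin kinase list, -0.21 to -0.054 for the binding proteins, -0.21 to 0.17 for stores and pumps, and -0.16 to 0.029 for the small EF-hand proteins, and all of these medians but that of the binding proteins changed sign with the library left out. No paired analysis was possible because the labels give no litter or pair for the libraries. The genotypes share only replicate number 5, and a shared number does not show a pair. At this depth *Calb1* and *Calb2* could not be tested. For *Hpca*, *Hpcal4*, and *Cabp1* the variance within genotypes was 13.6, 18.8, and 7.28 times that of counting alone.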
